A study of Bos taurus with 6 samples.

Results

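The genes described here carry the names of translation factors and were read in single bovine morulae. The 44 genes have symbols that begin with EIF and a digit, EEF1 or EEF2, or are ETF1. They are part of 13185 gene symbols kept in all 6 libraries, and were chosen by symbol and not by level. A member such as EIF4A3 may therefore act outside cytosolic translation. EIF1AX, EIF1AY and EEF1E1 are not members, nor are the kinases, binding proteins and methyltransferase whose names begin with EIF2AK, EIF4EBP or EEF2K. All 44 had 1 row of their own in each library, with no merged locus. The span of the locus was the same in all 6 libraries for 20 of the 44. It differed between libraries for the rest, among them EIF4B, EIF2S3, EIF3A and EIF5. The part of these spans in the FPKM values was not tested. A further 13 symbols of the prepared list, among them EIF4G1, EIF5B and EIF3F, were not analysed here. They are not all factors, since they include the methyltransferases EEF1AKMT1, EEF1AKMT2, EEF1AKMT3 and EEF1AKMT4. They also include EIF3C, a synonym of the member EIF3CL.

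The embryos were produced by in vitro fertilization and cultured in mSOF medium with serum albumin at 5% oxygen. The 3 Control embryos received 0.1% DMSO from the 8 to 16 cell stage (72 h after insemination, day 3). The 3 MAT2A-inhibited embryos received 20 µM FIDAS-5 from the same stage, and both groups were collected as morulae at 144 h (day 6). MAT2A is the enzyme that makes S-adenosylmethionine, the methyl donor of the cell, and FIDAS-5 is its inhibitor. Whether the treated medium held DMSO too, and the breed and sex of the embryos, is not in the labels. Each library holds the polyA RNA of 1 whole embryo, prepared with a full-length low-input kit. A p-value therefore rests on the spread between these embryos, which the labels do not tie to separate cultures. In limma that spread is drawn toward the one of other genes of similar level.

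Translation begins when eIF2 brings the initiator tRNA to the small ribosomal subunit, where eIF3 serves as a scaffold, and eIF4 proteins bring the capped mRNA. The elongation factor eEF1A then delivers each aminoacyl-tRNA, eEF2 moves the ribosome along, and eRF1 releases the finished chain. S-adenosylmethionine touches this machinery at several points: it methylates the mRNA cap that eIF4E binds and lysines of eEF1A, it is used to build the diphthamide of eEF2, and through the polyamine spermidine it contributes to the hypusine of eIF5A. Bovine embryos switch on most of their own transcription around the stage at which the inhibitor was added.

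Recovered depth was 46400000 to 59900000 fragments per library. Expression is in FPKM, which allows for transcript length and depth. The embryo gene POU5F1 was at 255 to 431 FPKM in the 6 libraries, SOX2 at 27.6 to 50.8 and DPPA3 at 454 to 881 FPKM. The other embryo genes of the prepared list varied more. KRT8 was at 81.4, 4.49 and 400.5 FPKM in Control embryos 1 to 3 and 38.7, 109.5 and 229.9 FPKM in MAT2A-inhibited ones. GATA3 was lowest in Control 2 and highest in Control 3, at 83.4 FPKM. NANOG was at 20.3 FPKM in Control 2 and 1.16 to 4.58 FPKM elsewhere, and CDX2 at 0.188 to 2.77 FPKM. The sum of 6 cumulus and stroma genes was 60.1 to 129 FPKM in Control and 43.5 to 82.9 FPKM in MAT2A-inhibited libraries. Of these, SERPINE2 was at 41.0 to 122 FPKM, VIM at most at 0.501 and COL1A2 at 4.29 FPKM, and DCN and LUM reached 11 and 4.81 FPKM in Control 2. The sum of 3 blood genes was 63.1 to 132 FPKM in Control and 81.9 to 110 FPKM in MAT2A-inhibited libraries, with HBA at 63.1 to 132 FPKM over the 6 libraries and the leukocyte gene PTPRC at most at 0.00464 FPKM. The sum of 4 sperm genes was 3.68 to 4.79 FPKM in Control libraries and 5.13 to 11.5 FPKM in MAT2A-inhibited ones. The part of these markers in the results below was not tested. Of 10 listed Y-linked symbols 5 were found. SRY was at 0 in all 6 libraries, and the deposited loci of the others found were on chromosome X. MAT2A-inhibited embryos 2 and 3 held transcripts of genes that RefSeq (ARS-UCD2.0) places on chromosome Y, while the other 4 libraries did not exceed 0.193 FPKM for their sum. Among them, EIF1AY was listed at 0 in 4 libraries and was at 38.2 and 106.9 FPKM in MAT2A-inhibited embryos 2 and 3. The presence of these transcripts cannot be told apart from treatment for embryos 2 and 3, so values without them, which rest on 1 treated embryo, are given for some genes below.

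As a family, the translation factors were abundant and close in level between the groups. Their FPKM values summed to 12793, 14427 and 12476 in Control embryos 1 to 3 and to 13061, 13985 and 11495 in MAT2A-inhibited embryos 1 to 3. The group sums overlapped, at 13232 ± 1047 against 12847 ± 1259 FPKM (SD, n = 3 each), or 1.40% ± 0.133 against 1.35% ± 0.137 of all annotated FPKM. Of the 44 genes, 31 lay in the top 10% of kept symbols by mean FPKM. EEF1A1 and EEF1B2 had means above 1000 FPKM, 27 members lay between 100 and 1000, 12 between 10 and 100, and EIF4E3 and EIF5A2 between 1 and 10 FPKM. EEF1A2, the copy of eEF1A known from muscle and nerve, was at most 0.0337 FPKM in any embryo. EEF1A1 alone made up 8.82% to 18.9% of the family's summed FPKM.

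**Figure D1:**
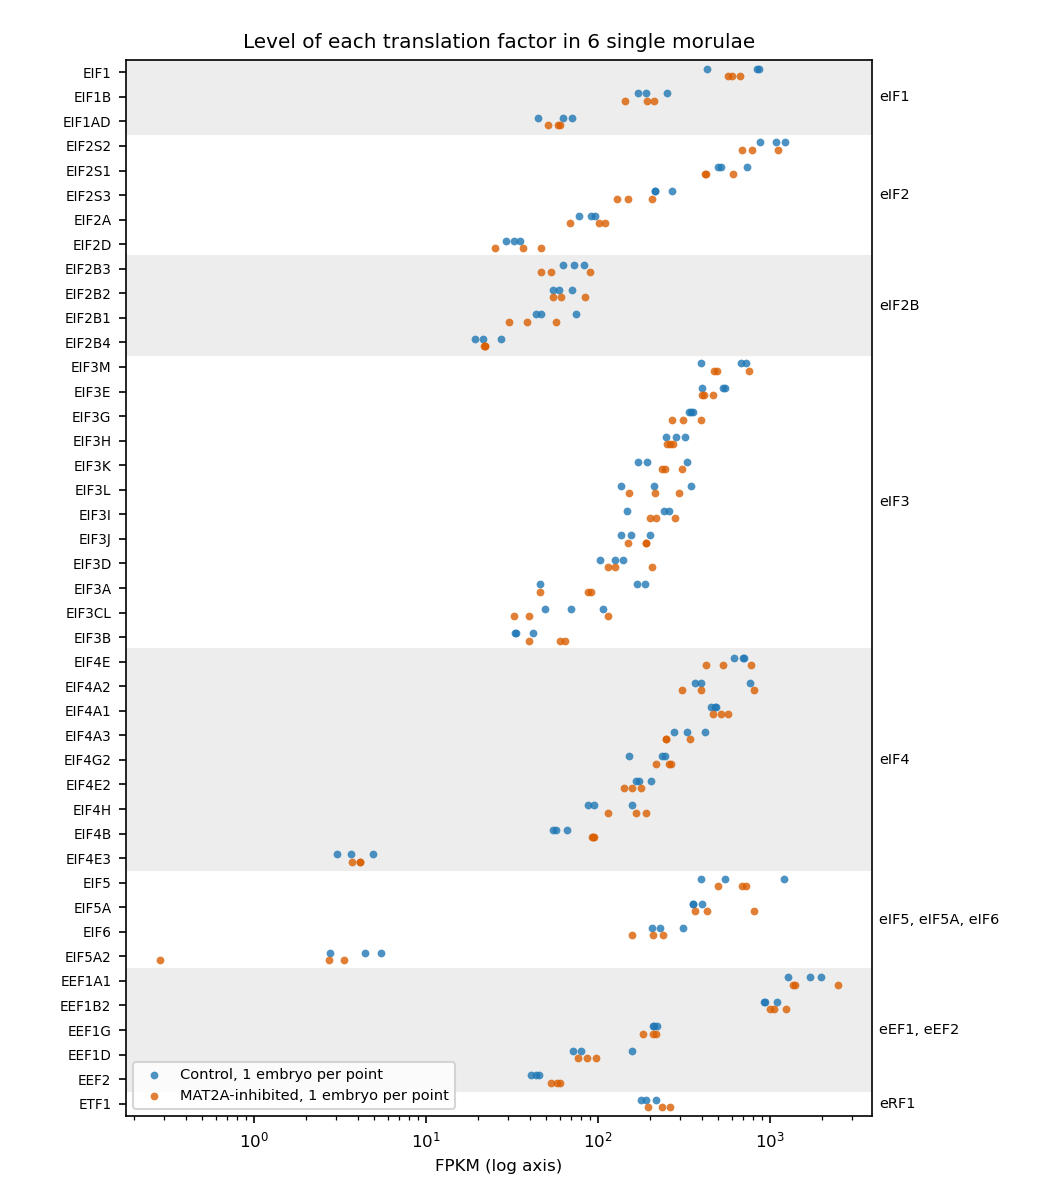
FPKM (log axis) of the 43 members at 1 FPKM or more in at least 3 libraries, grouped by factor; each point is 1 embryo, blue for Control and orange for MAT2A-inhibited. EEF1A1 and EEF1B2 are the highest, EIF4E3 and EIF5A2 lie below 10 FPKM, and for most genes the blue and orange points overlap.

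No translation factor passed the test between MAT2A-inhibited and Control embryos. The test was limma on log2(FPKM + 1) over the 7319 genes that reached 1 FPKM in 3 or more of the libraries, with Benjamini-Hochberg adjustment and a threshold of 0.05. Of the 43 members tested 0 passed, with a smallest adjusted p of 0.701, where 0.041% of all tested genes passed, 0.0273% as higher and 0.0137% as lower. Before adjustment, 2 of the 43, EIF4B and EIF2S3, had a p below 0.05, a level that 6.64% of all tested genes reached. The log2 difference (MAT2A-inhibited minus Control) was above 0 for 18 members and below 0 for 25, that is 41.9% above 0 beside 54.2% of all tested genes. The members' median difference was -0.04 and that of all tested genes 0.04. In 38 of the 43 the difference was smaller than 0.5 in size, and the members' median SE was 0.24. For 3 members, EIF4B, EEF2 and EIF2S3, the groups did not overlap, that is 6.98% of members beside 13.4% of tested genes. EIF4B and EEF2 were higher, where 8.27% of tested genes were separate and higher, and EIF2S3 was lower, where 5.18% were separate and lower. The share of members with separate groups was not above that background. In whole embryos, fewer cells of a type and less RNA per cell cannot be told apart.

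**Figure D2:**
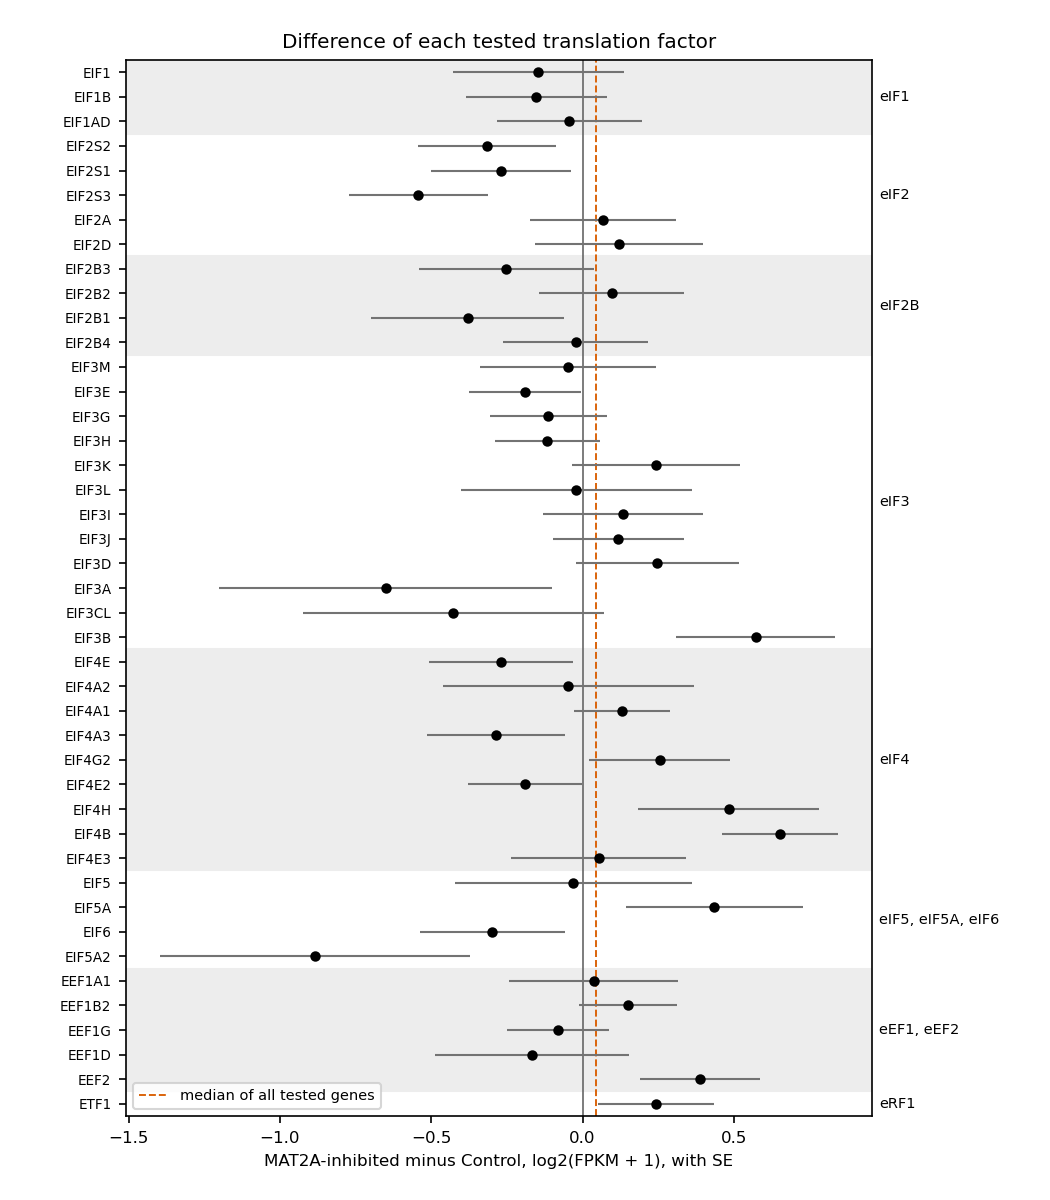
Log2 difference (MAT2A-inhibited minus Control, on log2(FPKM + 1)) of each of the 43 tested members with its SE from limma; the grey line is 0 and the dashed line the median of all 7319 tested genes, 0.04. EIF4B lies farthest right at 0.65 and EIF5A2 farthest left at -0.88, and 0 members passed the test.

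Among the eIF4 proteins, EIF4B had the smallest p of the whole family. It encodes a cofactor that stimulates the helicase eIF4A on structured leaders (bosTau8 chromosome 5, 27089706 to 27115819). EIF4B was at 54.6, 57.0 and 66.1 FPKM in Control embryos 1 to 3 and at 94.5, 92.0 and 93.6 FPKM in MAT2A-inhibited embryos 1 to 3. All treated embryos were higher than all controls, and the treated values lay within a narrow band. The log2 difference was 0.65 ± 0.19 (SE) with an unadjusted p of 0.00968 and a limma adjusted p of 0.701, so it did not pass. It lay between 0.59 and 0.73 under the 17 alternative settings, several of which cannot change it. Without the embryos holding Y-linked transcripts it was 0.67.

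EIF4H, a smaller cofactor of the same helicase, was at 95.3, 87.5 and 158 FPKM in Control embryos and 115, 191 and 165 FPKM in MAT2A-inhibited ones. Control 3 lay among the treated values, and the log2 difference was 0.48 ± 0.30 (limma adjusted p = 0.788).

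The cap-binding protein gene EIF4E (chromosome 6, 27042237 to 27080767) was at 619, 699 and 709 FPKM in Control embryos. In MAT2A-inhibited embryos it was at 424, 780.3 and 530.3 FPKM, so embryo 2 exceeded every control while embryos 1 and 3 were below them. The log2 difference was -0.27 ± 0.24 (limma adjusted p = 0.829), -0.07 without MAT2A-inhibited 1 and -0.51 without MAT2A-inhibited 2. EIF4E2, a related cap-binding protein tied to repression, was at 141 to 203 FPKM, and EIF4E3 at 3.04 to 4.90 FPKM, with overlapping groups for both.

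The helicase genes differed in how steady they were. EIF4A1 had one of the smaller ranges, 451, 488 and 479.7 FPKM against 570.0, 522 and 465 FPKM. Its paralog EIF4A2 was at 365, 765 and 397 FPKM in Control embryos and 813, 398 and 309.8 FPKM in MAT2A-inhibited ones. Control 2 and MAT2A-inhibited 1 were high and the other 4 embryos low. EIF4A3, which sits in the exon junction complex, was at 247 to 418 FPKM with overlapping groups. EIF4G2, a scaffold that lacks the eIF4E site of its relatives, was at 152 to 266 FPKM. Of the 9 tested eIF4 genes, 5 had a difference above 0 and the median was 0.05.

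The eIF2 complex carries the initiator tRNA and is made of an alpha (EIF2S1), a beta (EIF2S2) and a gamma subunit (EIF2S3). EIF2S2 (chromosome 13, 64050711 to 64069300) was at 876, 1081 and 1220.4 FPKM in Control embryos and 684, 1117 and 784 FPKM in MAT2A-inhibited ones. EIF2S1, whose phosphorylation limits initiation under stress, was at 521, 736 and 498 FPKM against 419.8, 609.9 and 426 FPKM. In both genes MAT2A-inhibited embryo 2 lay within the Control range and embryos 1 and 3 below it. The log2 differences were -0.32 ± 0.23 and -0.27 ± 0.23, with limma adjusted p of 0.803 and 0.818. With 1 library left out, EIF2S2 ran from -0.17 without MAT2A-inhibited 1 to -0.52 without MAT2A-inhibited 2, and EIF2S1 from -0.09 without Control 2 to -0.44 without MAT2A-inhibited 2. Summed with EIF2S3, the 3 subunits were at 1876 ± 243 FPKM in Control and 1508 ± 318 FPKM in MAT2A-inhibited embryos (SD, n = 3).

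EIF2S3, on chromosome X (126237299 to 126255159), was the member with the second smallest p. It was at 214, 268 and 215 FPKM in Control embryos and at 207, 149 and 129 FPKM in MAT2A-inhibited embryos. The groups did not overlap, but embryo 1 lay just under the controls, and the lower values were those of the embryos with Y-linked transcripts. The log2 difference was -0.54 ± 0.23 with an unadjusted p of 0.0474 and a limma adjusted p of 0.746. Without MAT2A-inhibited embryos 2 and 3 it was -0.16 ± 0.29. With each library scaled to the same sum (TPM) the EIF2S3 groups overlapped.

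The order of the eIF2 subunits was the same in all 6 embryos, with EIF2S2 above EIF2S1 and EIF2S1 above EIF2S3 in FPKM. EIF2S2 was 1.47 to 2.45 times EIF2S1. EIF2S3 was 0.410, 0.365 and 0.433 times EIF2S1 in Control embryos and 0.492, 0.244 and 0.304 times in MAT2A-inhibited ones, so embryo 1 had the highest ratio and embryos 2 and 3 the lowest. EIF2A and EIF2D, which can deliver initiator tRNA without eIF2, were lower, at 68.8 to 110.5 and 25.1 to 46.7 FPKM.

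The EIF1AX gene, on the X chromosome and left out of the family by the rule, is shown for comparison with EIF2S3. It encodes eIF1A, which helps the ribosome find the start codon, and was at 2331, 2253 and 2160.5 FPKM in Control embryos and 2292, 1257 and 1092 FPKM in MAT2A-inhibited ones. The embryos with Y-linked transcripts were the only low ones, and without them the log2 difference moved from -0.62 to 0.028.

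**Figure D3:**
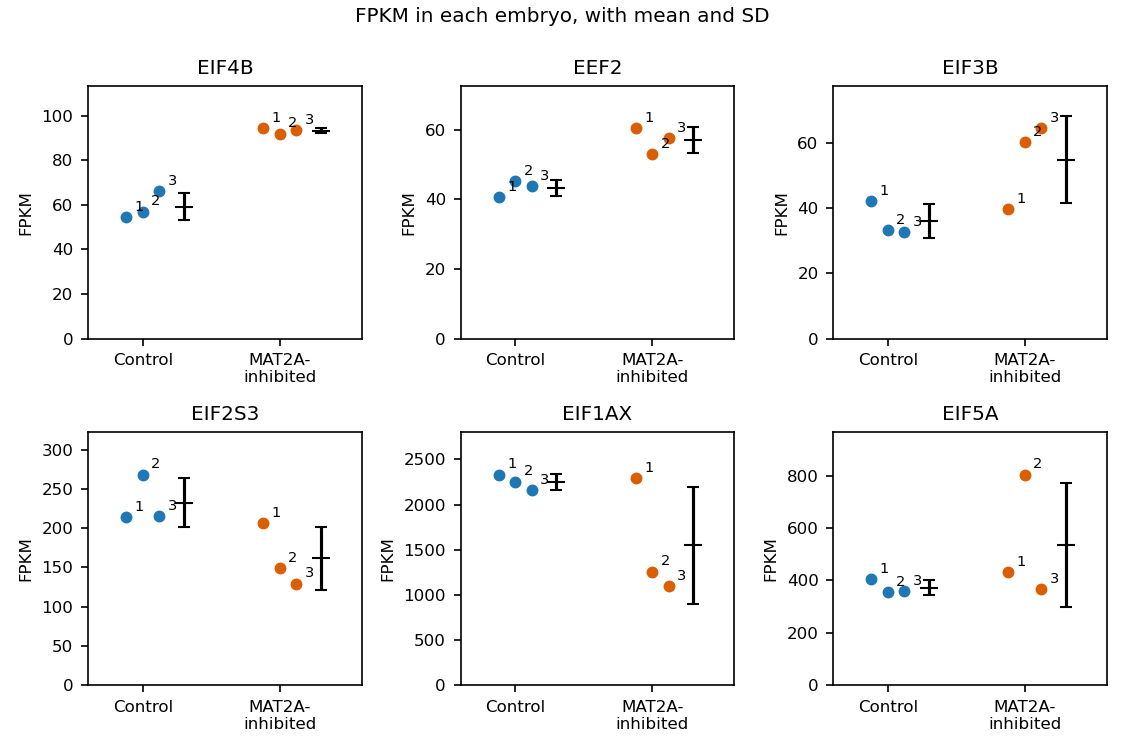
FPKM of EIF4B, EEF2, EIF3B, EIF2S3, EIF1AX and EIF5A in each embryo, with replicate numbers beside the points and the mean and SD of each group (n = 3) as bars; each axis starts at 0. EIF4B and EEF2 are higher in every treated embryo, EIF2S3 and EIF1AX are lowest in MAT2A-inhibited embryos 2 and 3, and EIF5A stands out in MAT2A-inhibited embryo 2 at 804 FPKM.

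The start-codon factor EIF1 was at 844, 866 and 427 FPKM in Control embryos and 605, 668 and 571 FPKM in MAT2A-inhibited ones. Control 3 was the lowest of the 6 and the other controls the highest. Its close relative EIF1B was at 189.8, 251 and 172 FPKM against 192, 213 and 145 FPKM, with overlapping groups. The 3 genes of this set, EIF1AD included, had log2 differences of -0.15 to -0.04.

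The exchange factor eIF2B recharges eIF2 with GTP, and 4 of its subunits were measured. EIF2B3 was at 62.2, 82.9 and 72.8 FPKM in Control embryos and 46.5, 89.3 and 53.0 FPKM in MAT2A-inhibited ones. EIF2B1 was at 46.6, 74.3 and 43.4 FPKM against 30.5, 56.9 and 38.6 FPKM, a log2 difference of -0.38 ± 0.32 (limma adjusted p = 0.816) that was -0.14 without Control 2 and -0.62 without MAT2A-inhibited 2. In both genes, embryo 2 was the highest of its group. EIF2B2 was at 54.9 to 83.7 FPKM. EIF2B4 was the lowest subunit at 19.3 to 27.2 FPKM, and the highest mean of the complex was 3.04 times the lowest. Summed over these subunits, eIF2B was at 211 ± 37.4 FPKM in Control and 193 ± 51.4 FPKM in MAT2A-inhibited embryos (SD, n = 3), with overlapping groups.

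The eIF3 scaffold holds the small subunit and the mRNA together, and 12 of its genes were measured. Their summed level was 2937 ± 239 FPKM in Control and 2826 ± 211 FPKM in MAT2A-inhibited embryos (SD, n = 3), with 5 of 12 differences above 0 and a median of -0.03. Transcript levels of the subunits were unequal although the proteins form 1 complex: the highest mean, that of EIF3M, was 12.9 times the lowest, that of EIF3B. EIF3M (chromosome 15, 64095495 to 64112929) was at 396, 729 and 676 FPKM against 475, 757 and 492 FPKM. EIF3E, EIF3G and EIF3H followed with 249.6 to 545 FPKM over the 6 embryos.

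EIF3B, a core subunit with an RNA recognition motif, had the smallest p within the complex. It was at 42.1, 33.4 and 32.8 FPKM in Control embryos and 39.8, 60.4 and 64.6 FPKM in MAT2A-inhibited ones. The groups overlapped through embryo 1 of each. The log2 difference was 0.57 ± 0.26 (limma adjusted p = 0.750), and 0.15 ± 0.36 without the embryos with Y-linked transcripts.

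EIF3A, the largest subunit, had the largest within-group SD of the 43 members on the log2(FPKM + 1) scale. It was at 45.8, 168 and 188 FPKM in Control embryos and 87.4, 91.6 and 46.1 FPKM in MAT2A-inhibited ones. Control 1 was as low as MAT2A-inhibited 3. EIF3CL, which RefSeq lists with EIF3C as a synonym, was at 49.2, 69.6 and 106 FPKM against 114, 32.6 and 39.5 FPKM. These 2 core subunits had log2 differences of -0.65 ± 0.55 and -0.43 ± 0.50, each close in size to its SE. EIF3D, a cap-binding subunit on selected mRNAs, was at 207 FPKM in MAT2A-inhibited embryo 1 and at 103 to 139 FPKM in the other 5.

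The factors that act at subunit joining and beyond were led by EIF5, the GTPase-activating protein of eIF2. It was at 545, 1206 and 399 FPKM in Control embryos and 685, 721 and 499 FPKM in MAT2A-inhibited ones. Control 2 was high and Control 3 the lowest, and the log2 difference was -0.03 ± 0.39. EIF6, which keeps the large subunit from joining too early, was at 230.4, 312 and 207 FPKM against 159, 240.3 and 209 FPKM.

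EIF5A helps the ribosome through difficult peptide bonds and is known as the protein that carries hypusine. EIF5A (chromosome 19, 27648382 to 27653258) was at 404, 355 and 358 FPKM in Control embryos and 431, 804 and 368 FPKM in MAT2A-inhibited ones. Embryo 2 was far above the others, and the log2 difference was 0.44 ± 0.29 (limma adjusted p = 0.800). Without MAT2A-inhibited replicate 2 it was 0.098. Its paralog EIF5A2 was low, at 5.46, 4.40 and 2.75 FPKM against 3.33, 0.284 and 2.74 FPKM, and the same embryo held the lowest value. EIF5A exceeded EIF5A2 by 74.0, 80.7 and 130.3 times in Control embryos and by 129.7, 2836 and 134.2 times in MAT2A-inhibited ones. For the log2 ratio the exact two-sided permutation p was 0.2 (adjusted p = 0.60 over 3 paralog pairs). For EIF4A1 over EIF4A2 and EIF4E over EIF4E2 the exact p was 0.5 and 0.9. The smallest p that 3 against 3 can give is 0.1, so no pair could pass 0.05 and no conclusion is drawn from these tests.

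Among the elongation factors EEF1A1 (chromosome 9, 13230572 to 13237071) was the most abundant transcript of the family. It was at 1993, 1273 and 1709 FPKM in Control embryos and 2473, 1352 and 1398 FPKM in MAT2A-inhibited ones. The groups overlapped, with a log2 difference of 0.04 ± 0.28 that turned to -0.022 with median-of-ratios scaling. EEF1A1 has many processed copies in mammalian genomes, so reads may have been split between them. The exchange complex that recharges eEF1A held EEF1B2 at 922 to 1238 FPKM, EEF1G at 183 to 222 FPKM and EEF1D at 71.1 to 159 FPKM. EEF1B2 and EEF1G were among the steadiest members, with within-group SDs of 0.15 and 0.10 on the log2(FPKM + 1) scale. EEF1D was high in Control 1 only.

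EEF2, the translocase (chromosome 7, 21252438 to 21261328), was at 40.8, 45.4 and 43.9 FPKM in Control embryos and 60.5, 53.0 and 57.7 FPKM in MAT2A-inhibited ones. All treated embryos exceeded all controls. The log2 difference was 0.39 ± 0.20 with an unadjusted p of 0.0867 and a limma adjusted p of 0.760. It lay between 0.33 and 0.47 under the 17 alternatives, several of which cannot change it. EEF2 was low beside its partner, since EEF1A1 was 24.2 to 48.9 times higher in FPKM.

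The release factor gene ETF1 (chromosome 7, 51468916 to 51498442) was at 217, 190.2 and 179 FPKM in Control embryos. It was at 236, 264 and 196 FPKM in MAT2A-inhibited embryos, with overlap through embryo 3, and the log2 difference was 0.24 ± 0.19 (limma adjusted p = 0.815).

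The median within-group SD of the family was 0.30 on the log2(FPKM + 1) scale, beside 0.40 for all tested genes. It ran from 0.09 for EEF2 to 0.88 for EIF3A. For 13 of the 43 members the highest embryo exceeded the lowest by over 2-fold. Control 2 held the highest value for 14 members and MAT2A-inhibited 2 for 11, while MAT2A-inhibited 3 held it for 2. The median member lay 0.18 above its mean over the 6 libraries in Control 2, 0.09 above in MAT2A-inhibited 2 and 0.12 below in MAT2A-inhibited 3. Without Control 2 the members' median difference was 0.03, with 23 of 43 above 0.

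With only MAT2A-inhibited embryo 1 set against the controls, several log2 differences were farther from 0 than in the whole comparison. EEF1A1 was then at 0.60 ± 0.31, EIF4E at -0.67 ± 0.24, EIF2S2 at -0.62 ± 0.28, EIF2B1 at -0.78 ± 0.43 and EIF2B3 at -0.62 ± 0.34, and EIF5A2 was nearer to 0 at -0.23 ± 0.52. These values describe 1 embryo.

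**Figure D4:**
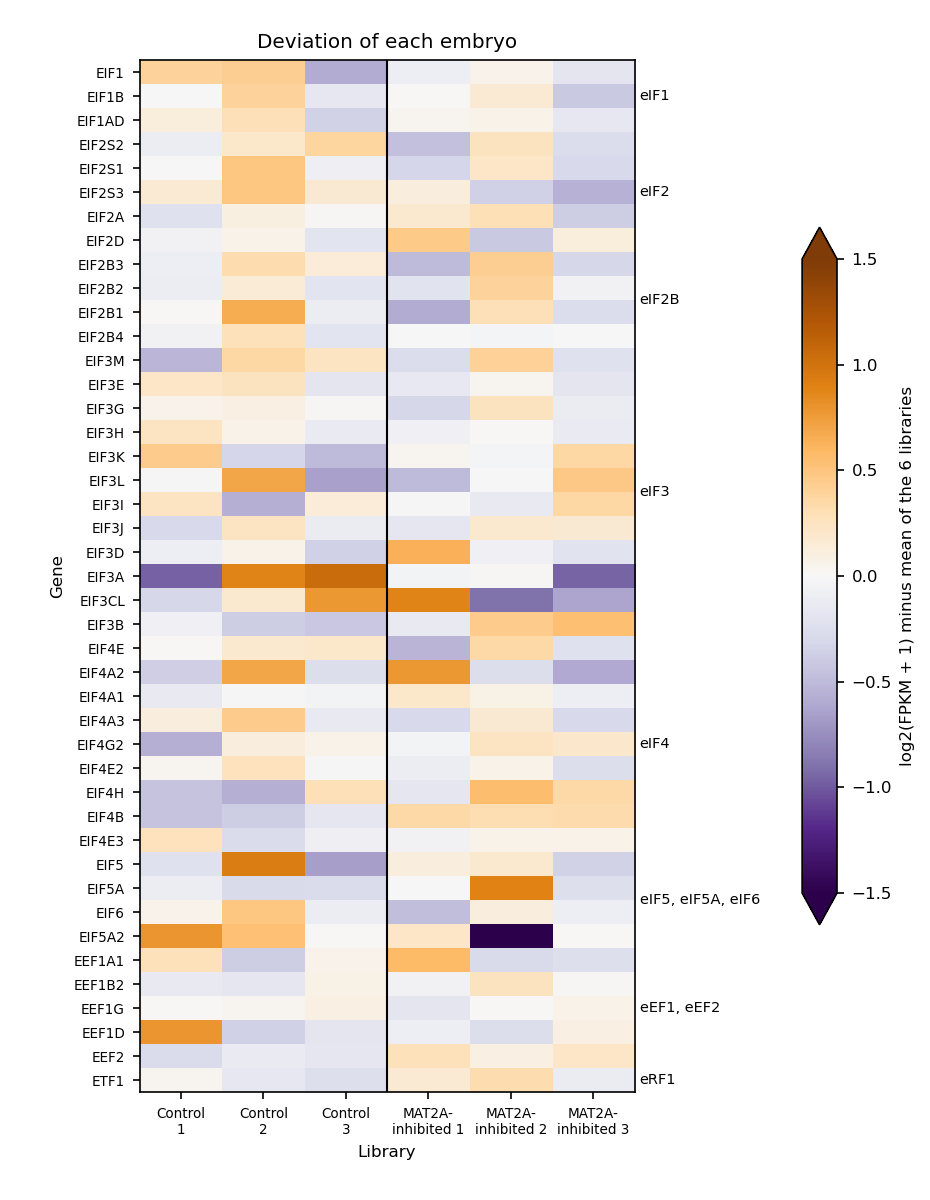
Deviation of each library from the mean of the 6 on log2(FPKM + 1) for the 43 tested members; columns are embryos, orange is above and purple below the mean, and the black line divides the groups. Control 2 is above the mean for most initiation factors, EIF3A, EIF3CL, EIF4A2 and EIF5 change from embryo to embryo, and EIF4B and EEF2 follow the group.

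Other translation genes outside the family were read from 2 prepared lists. In the list of kinases, phosphatase subunits and binding proteins that regulate the factors, 12 of 20 were tested, and 0 passed over all genes, with 8 above 0 and 4 below, EIF1AX counted among them. For 3 of the 12 (EIF2AK1, EIF2AK3 and EIF4EBP2) all treated embryos were higher, a pattern of 8.27% of all tested genes. EIF4EBP2 was at 5.74, 0 and 5.54 FPKM in Control embryos and 6.84, 6.33 and 5.89 FPKM in MAT2A-inhibited ones. Control 2 was listed at 0, and Controls 1 and 3 lay just under the treated embryos. EIF2AK3, the kinase known as PERK that phosphorylates eIF2 when the endoplasmic reticulum is overloaded, was at 1.72, 0.435 and 3.24 FPKM in Control embryos and 3.38, 3.97 and 6.32 FPKM in MAT2A-inhibited ones. The groups did not overlap but Control 3 nearly met the lowest treated embryo, and the log2 difference was 1.09 ± 0.46 (unadjusted p = 0.0451, limma adjusted p = 0.746). EIF4EBP1, which holds eIF4E back until it is phosphorylated, was at 8.91, 11.7 and 15.1 FPKM against 13.8, 25.5 and 20.5 FPKM, with overlap between Control 3 and treated embryo 1 (log2 difference 0.69 ± 0.32, limma adjusted p = 0.750). Without the embryos holding Y-linked transcripts the EIF4EBP1 difference was 0.22 ± 0.47.

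EIF2AK1, the heme-regulated eIF2 kinase, was singled out after its values were seen. It was at 6.73, 4.20 and 4.83 FPKM in Control embryos and 45.4, 8.19 and 7.79 FPKM in MAT2A-inhibited ones, so the group mean rests on embryo 1. EIF2AK2 was listed at 0 in every library, and EEF2K, the kinase of eEF2, was at 0, 0.0841 and 0 FPKM in Control embryos and 0, 0 and 0.0211 FPKM in MAT2A-inhibited ones. EIF2AK4 and MTOR were not analysed here.

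In the list of partners in initiation, poly(A) binding, recycling and release, 19 of 25 were tested and 0 passed, with 5 above 0 and 14 below. For 3 of the 19 (DDX3X, MCTS1 and DHPS) all treated embryos were lower, a pattern of 5.18% of all tested genes. An unadjusted p below 0.05, which 6.64% of all tested genes had, was that of 2 of the 19, the X-linked DDX3X and MCTS1. DDX3X, a helicase used on structured leaders, was at 94.7, 164 and 103 FPKM in Control embryos and 64.8, 74.3 and 64.9 FPKM in MAT2A-inhibited ones (log2 difference -0.78 ± 0.25, limma adjusted p = 0.701). MCTS1, which with DENR recycles small subunits, was at 56.7, 49.5 and 46.2 FPKM against 38.6, 11.2 and 20.9 FPKM (-1.23 ± 0.41, adjusted p = 0.701 in limma). Without the embryos holding Y-linked transcripts the difference was -0.84 for DDX3X and -0.38 for MCTS1, so the MCTS1 value was smaller and the DDX3X value was not. PABPC1, the main poly(A)-binding protein, was at 892, 548 and 504 FPKM against 751, 609 and 476 FPKM.

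The enzymes that modify eIF5A and eEF2 were read from the same list. DHPS, which starts the hypusine of eIF5A from spermidine, was at 28.0, 32.5 and 24.8 FPKM in Control embryos and at 22.5, 16.6 and 0 FPKM in MAT2A-inhibited ones. The treated values all lay below the controls, but embryo 3 was listed at 0. That value carried the status OK, but whether it reflects the RNA or the estimate was not tested, so no fold is given. Without MAT2A-inhibited embryo 3 the log2 difference was -0.53. DOHH, which completes hypusine, was at 1.92, 2.08 and 2.41 FPKM against 2.34, 1.65 and 1.57 FPKM, with overlapping groups. DPH3, of diphthamide synthesis, was at 99.3, 184 and 113 FPKM against 54.4, 67.8 and 115 FPKM, where treated embryo 3 lay among the controls (log2 difference -0.75 ± 0.35, limma adjusted p = 0.750). Without the embryos holding Y-linked transcripts the DPH3 difference was -1.21 ± 0.43.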

How the data were processed

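Gene tables of 6 libraries were used, 1 per embryo. The authors deposited FPKM values with confidence bounds, per the file headers. In 8.28% to 10.65% of annotated rows per library the FPKM lay outside its own bounds. TopHat2 2.0.14 and Cufflinks 2.2.1 with the build bosTau8 are named in the submitters' processing notes, with annotation, options and any scaling between libraries not given in the sources used here. FPKM were summed per symbol, leaving out rows that name several genes. Of 13295 symbols in all 6 libraries, 13185 were kept after removal of 38 that share a merged locus and 72 with a status other than OK. Depth was recovered from the lower bounds of unannotated loci of 100 to 300 bases, where 99.7% to 99.9% of values were whole fragments within 0.05. Counts per gene were not recovered, so errors rest on the spread between embryos. The limma SE and p-value also borrow the variance of other genes of similar level. For EIF4B and EEF2 the SEs of 0.19 and 0.20 lay above their own within-group SDs of 0.10 and 0.09.

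Groups were compared two-sided with limma (version 3.58.1, under R 4.3.3), using its trend option and no replicate term, on log2(FPKM + 1). This scale understates changes of low genes. The fit was tested on simulated data with planted changes larger than that of any member, so its power at the members' sizes was not tested. The members, lists and settings were chosen with earlier results of these data known. Values in every library are given for the highest member and the one with the smallest p of each role, for members with separate groups or an unadjusted p below 0.05, and for EIF2S1, EIF2S3, EIF4E, EIF5A, EEF1A1, EEF2 and ETF1; from the pathway lists, for the 3 genes with the smallest p in each and EIF2AK3, EIF4EBP1, EEF2K, PABPC1, DHPS, DOHH and EIF1AX. Other genes with values in every library were chosen after their values were seen. Positions are the widest span over the libraries, 1-based, in bosTau8. All 44 symbols matched RefSeq (ARS-UCD2.0), which was used for names and chromosome Y only. The alternatives changed the scaling, the pseudocount (0.1), the filter, the trend, the array weights or the rows used per symbol, added a replicate block, or left out each library or those with Y-linked transcripts.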

Additional observations from a re-analysis of the deposited data

How the results depend on the processing

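Under each of the 17 alternatives, 0 translation factors and 0 of the genes named from the prepared lists passed limma. Over all tested genes 3 passed, against 1 with no filter on low values, 1 with a mean of at least 5 FPKM, 1 with the replicate block, 5 with array weights and 0 without the libraries with Y-linked transcripts; leaving out 1 library gave 0 to 8, with 8 without Control 3 and 0 without any of the treated embryos in turn. The number of members with separate groups was 3, and 2 with TPM scaling. Without the libraries with Y-linked transcripts it was 23, where 1 treated embryo is left and 48.7% of all tested genes are separate. It was 4 to 12 with 1 library left out, or 9.30% to 27.9% of members, where 20.7% to 27.0% of all tested genes are separate. The number of members above 0 was 17 to 23 and their median difference -0.13 to 0.03, above 0 without Control 2 or MAT2A-inhibited 3. Median-of-ratios scaling moved the median of all tested genes from 0.04 to -0.006.

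The pairing of replicate numbers was checked: the correlations of deviations for numbers 1 to 3 were 0.046, 0.10 and 0.19. Between libraries of different number they ran from -0.21 to 0.10. Each Control library was highest with the treated library of its own number, though for Control 2 only by 0.103 against 0.1017. MAT2A-inhibited 1 correlated more with Control 2 (0.10) than with Control 1. A batch shared by same-numbered libraries was not tested, and the labels give only a number. With the replicate block 0 members passed, and 572 tested genes had an unadjusted limma p below 0.05, beside 486 without it.

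Of 457 values under alternatives, which include paralog ratios with 1 library left out, 430 kept their sign and 27 changed it. No gene value passed limma, and the ratios had no limma test. The filter, trend, replicate block and rows per symbol could not change a member's log2 difference, so these alternatives say nothing about its sign. EEF1A1 was at -0.022 with median-of-ratios scaling, -0.00063 with quantile normalization and -0.13 with array weights. Array weights gave 0.21 for EIF3M and 0.080 for EIF5. Without the libraries with Y-linked transcripts EIF5 was at 0.097, DOHH at 0.092, EIF1AX at 0.028 and PABPC1 at 0.26. With 1 library left out EEF1A1 ran from -0.25 to 0.19, EIF1 from -0.48 to 0.030, EIF1B from -0.27 to 0.0078, EIF3M from -0.32 to 0.12, EIF5 from -0.37 to 0.43 and PABPC1 from -0.22 to 0.19. The paralog log2 ratios ran from -0.14 to 0.51 for EIF4A1 over EIF4A2 and from -0.24 to 0.12 for EIF4E over EIF4E2. Each fit with 1 treated embryo assumes that it varies like the controls.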
